A study of Zea mays with 24 samples.

Results

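Severe drought raised some transcripts in the shoots of both maize lines studied. After re-watering, 83 of the probe sets that measure them were near or below the control level in the line Han21. Of these, 18 lay at or below -0.5 in log2 re-watering minus control. In the line Ye478 all 83 were still above their control level. A probe set is a group of short oligonucleotides on the array, designed to measure a transcript or closely related transcripts. The members were chosen from the measured values, with G standing for log2 of a group's mean signal plus 5. Severe drought minus control in G was at least 1 in both lines, re-watering minus control was at least 1 in Ye478 and at most 0.3 in Han21, and the mean signal under severe drought was at least 200 units in both lines. Of 17621 probe sets for genes, 725 met the conditions on severe drought, and 83 of them (11.4%) met all conditions. The seedlings were at the 3-leaf stage and came from 2 maize inbreds, Han21 and Ye478. Shoots were taken from untreated control plants, from plants in moderate drought, from plants in severe drought and from plants given water again, so that each inbred has 4 groups, and each group has 3 arrays that the titles call biological replicates. Soil water contents and treatment lengths were not given in the sources used here, nor was the time between re-watering and sampling. The series' description mentions 2 independent experiments, so the p-values measure the spread between these arrays, which may be partly technical.

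Plants short of water make the hormone abscisic acid, which closes the stomata and switches on protective genes, among them those for dehydrins and other late embryogenesis abundant (LEA) proteins that shield proteins and membranes as cells dry. Drought also brings in enzymes that remove reactive and toxic compounds, such as glutathione S-transferases, and shifts carbon and energy metabolism. When water returns, abscisic acid is broken down and most such transcripts decay, and growth and photosynthesis resume.

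The annotation of the array named 1 gene for 14 of the 83 members, which stand for 13 genes, and 69 members had no gene name and are given by their probe set ID. They came from 77 sequence clusters as the IDs show them, since 11 probe sets lay in 5 clusters that had more than 1 member and are not independent measurements. The named members included vp14, which encodes the cleavage enzyme 9-cis-epoxycarotenoid dioxygenase of abscisic acid synthesis, GBF1, a G-box binding factor, the globulin storage protein gene glb1, adh1 for alcohol dehydrogenase, mas1 for malate synthase, and the glutathione S-transferase genes gst19 and GST39. The others were lox3 for a lipoxygenase, Zlp for a zeamatin-like antifungal protein (2 probe sets), the metallothionein-like gene mtl2, and LOC100037814, LOC542630 and LOC542127, for which no role is given here.

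In re-watered Ye478 the members lay 1.00 to 4.11 above control on the scale of the rule, with a median of 1.51. Of them, 21 were at least 2 above and 4 at least 3 above. A high value here is a difference from the own control and need not be a bright signal. The Ye478 control mean was at or under 50 units for 22 of the 83 members (26.5%). The lowest re-watered Ye478 mean was 31.6 units, and the median was 458 units. For members this close to the detection limit the difference depends on the constant added. The median share of the severe drought rise that was left in Ye478 was 49.1% on the log2 scale (range 16.1% to 110.8%). In Han21 the members lay between -1.23 and 0.29 with a median of -0.15. There 48 were below control and 18 at or below -0.5, and the median share left was -5.9%. These values chose the members and are a description without a test. Since the samples are whole tissue, more RNA per cell and more cells of a type that holds the transcript cannot be told apart. Other measures moved with severe drought as well. The summed signal of 7 green shoot markers was 24099 to 30814 units under severe drought in Han21 (controls 38360 to 50790) and 22344 to 28440 in Ye478 (controls 37257 to 48048). That of 5 dividing-tissue markers was 444 to 479 units in Han21 (controls 1207 to 1461) and 518 to 564 in Ye478 (controls 1128 to 1348). On control probe sets that report RNA quality, the log2 difference of the 3' over the 5' signal for actin was 1.00 ± 0.32 in Han21 and 1.08 ± 0.35 in Ye478, lower than the 1.86 ± 0.16 and 2.02 ± 0.24 of the controls, while for GAPDH it was 1.70 ± 0.44 and 1.36 ± 0.90 against 0.91 ± 0.78 and -0.57 ± 0.79 (SD, n = 3). Their part in the severe drought values was not tested.

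**Figure D1:**
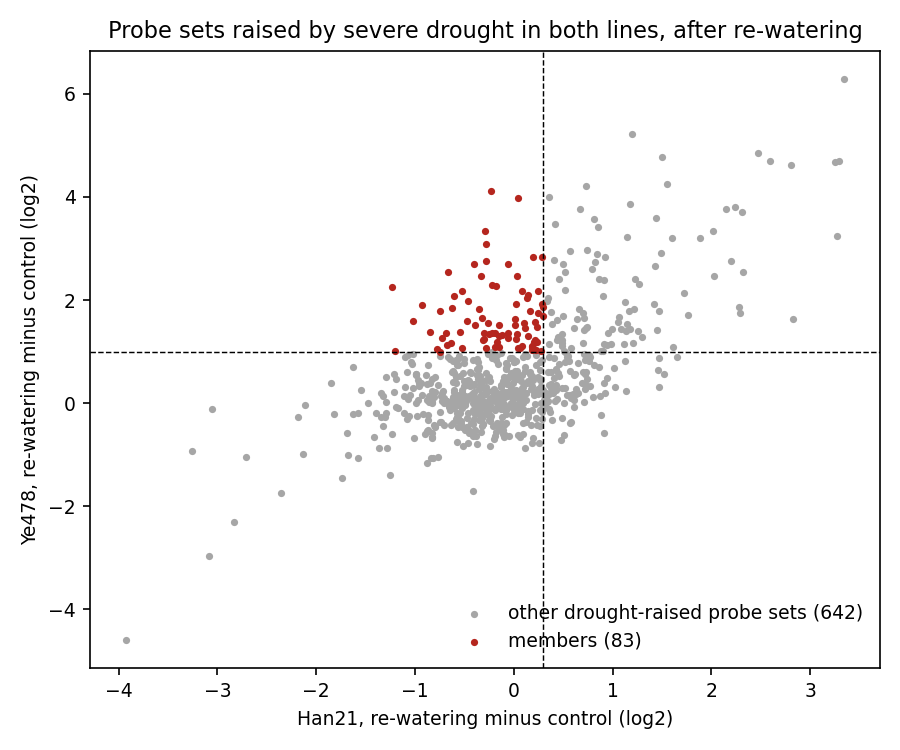
Re-watering minus control in Han21 (x axis) and in Ye478 (y axis), in log2 of the group mean signal plus 5, for the 725 probe sets raised by severe drought in both lines; the 83 members are in red and the dashed lines mark 0.3 in Han21 and 1 in Ye478. The members occupy the upper left, between 1.00 and 4.11 in Ye478 and between -1.23 and 0.29 in Han21.

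The thresholds cut through continuous distributions. On the Ye478 side the last member inside was Zm.12854.1.A1_at at 1.001 and the first outside was Zm.8639.1.A1_at at 0.997, with 454 probe sets missing that condition alone. On the Han21 side Zm.8160.1.A1_at was inside at 0.294 and Zm.9684.1.A1_at outside at 0.338, with 99 missing that condition alone. For severe drought minus control in Han21, Zm.4160.1.A1_at was inside at 1.01 and Zm.12373.1.S1_at outside at 0.943. For the Ye478 severe drought difference the lowest member was adh1 at 1.38, and no probe set missed that condition alone. For the mean signal in Han21 under severe drought, Zm.7920.1.S1_at was inside at 205.7 units and Zm.9297.1.A1_at outside at 198.9 units, and in Ye478 Zm.16973.1.S1_at was inside at 227.2 units and Zm.10835.1.S1_at outside at 110.2 units. With the conditions for the lines exchanged, 1 probe set was found, Zm.8621.1.A1_at, at 1.14 in re-watered Han21 and 0.23 in re-watered Ye478. Back in both lines, here at most 0.3 above control after re-watering, were 317, and 48 were high in both, at least 1 above. Among all 725 drought-raised probe sets, 182 (25.1%) were at least 1 above control in re-watered Ye478 and 57 (7.86%) in re-watered Han21. These counts rest on the same arrays as the rule and are a description without a test.

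The arrays behind these means were mostly separated. All 3 re-watered Ye478 arrays lay above all 3 Ye478 controls for the 83 members, as against 17.6% of the 12111 probe sets bright enough to be tested. In Han21 the re-watered arrays lay above all controls for 2 members, Zm.8160.1.A1_at and Zm.9651.1.A1_at (20.6% of all tested), and below all controls for 17 (25.1% of all tested). Between arrays with the same replicate number, the Ye478 difference was at least 1 for 75 members in replicate 1, 78 in replicate 2 and 62 in replicate 3. For Han21 the medians of this difference were -0.201, -0.436 and 0.16, and its highest values 1.415, 0.615 and 2.384, in the same order. When the rule was applied without 1 array or without 1 replicate number it found between 62 and 112 probe sets, and 45 of the 83 were found every time. The low end came without replicate 2 and the high end without replicate 3. Of the named genes, GBF1, glb1, mtl2, LOC542630 and LOC542127 were not found every time, and the others were. The Ye478 control mean was below the Han21 control mean for 62 of 83 members, as against 390 of the 725 drought-raised and 6218 of the 12111 tested probe sets. The rule measures each line from its own control, and a lower Ye478 control widens the Ye478 difference. For 67 members the 3 re-watered Ye478 arrays also lay above the 3 re-watered Han21 arrays (23% of all tested), and for 7 the re-watered Ye478 mean was at or below the Han21 control mean. The rule used the control and re-watered arrays of both lines, so nothing is read from these counts against their backgrounds.

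**Figure D2:**
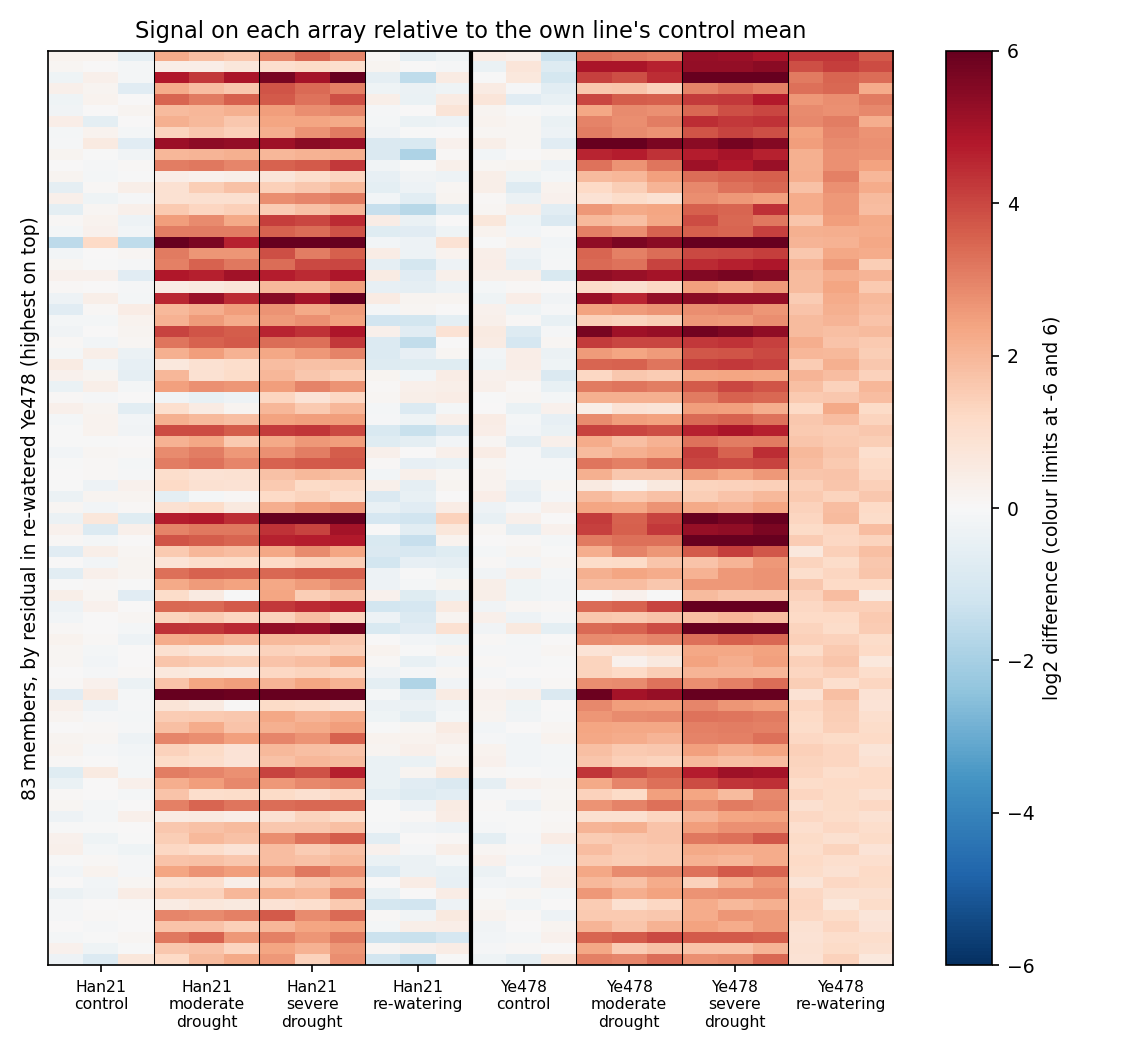
Each row is 1 of the 83 members and each column 1 array, in groups of 3; the colour gives log2 (signal plus 5) minus the mean of the own line's controls, and colours are saturated beyond 6. The re-watered Han21 columns are mostly near or below 0, and the re-watered Ye478 columns are above 0 throughout, at a lower level than under severe drought for all members but 2.

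The gene of abscisic acid synthesis among the members, vp14, read 51.7, 42.7 and 51.3 units on the Ye478 control arrays, 360, 428 and 533 under severe drought and 142, 102 and 126 after re-watering. In Han21 it read 84.7, 96.9 and 62.9 in the controls, 345, 436 and 362 under severe drought and 52.4, 20 and 69.3 after re-watering. The lines therefore reached overlapping levels under severe drought, but after re-watering every Ye478 array was above every Han21 array. GBF1 encodes a bZIP factor known in maize to be induced by low oxygen and to bind the adh1 promoter. It read 1853, 2021 and 2009 units in Han21 and 1054, 1338 and 1226 in Ye478 under severe drought, and 177, 145 and 251 against 294, 338 and 358 after re-watering. Its order between the lines was thus opposite in these states, with no overlap in either. On the log2 scale, 37.4% of its rise was left in Ye478 and 2.5% in Han21.

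The gene adh1, whose enzyme ferments acetaldehyde to ethanol, was 1 of only 2 members whose re-watered Ye478 mean exceeded the severe drought mean. It read 1025, 688 and 969 units in the Ye478 controls, 2230, 2329 and 2423 under severe drought and 2428, 2862 and 2454 after re-watering. Every re-watered array of Ye478 was thus above every one of its severe drought arrays. In Han21 it read 587, 484 and 702 in the controls, 1771, 1316 and 1422 under severe drought and 737, 399 and 657 after re-watering, which overlaps the controls. The other of the 2, Zm.1967.1.A1_at, had nearly equal Ye478 means, 591 units after re-watering and 589 under severe drought. It read 537, 659 and 570 units under severe drought and 689, 761 and 321 after re-watering in Ye478, where the third array was well below the others. The mean after re-watering was above the moderate drought mean for 17 members, among them lox3, LOC542630, LOC100037814 and both probe sets of Zlp.

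Malate synthase, the product of mas1, belongs to the glyoxylate cycle, which turns the carbon of fatty acids into precursors of sugar. The mas1 signal was 453 ± 105 units (SD, n = 3) in Ye478 controls, 2151 ± 194 under severe drought and 1300 ± 327 after re-watering, and 133 ± 13.6, 759 ± 143 and 120 ± 53 in Han21. On single arrays it read 1180, 1670 and 1049 after re-watering in Ye478 and 97.7, 80.8 and 180 in Han21. The lowest re-watered Ye478 array was thus above the highest severe drought array of Han21, at 897. The re-watered Ye478 mean exceeded the Han21 severe drought mean for 7 members in all.

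Glutathione S-transferases attach glutathione to toxic compounds and lipid peroxides. The signal of gst19 read 9.8, 27.9 and 6.4 units in Ye478 controls, below the level of 72.6 to 106.8 units used to call a probe set bright enough, 763, 758 and 837 under severe drought, and 286, 343 and 291 after re-watering. In Han21 it was already 1603, 1472 and 1337 in the controls, 2964, 3302 and 3008 under severe drought, and 1642, 1505 and 1402 after re-watering. Even the highest Ye478 signal was therefore below the lowest Han21 control, and a difference in level between lines cannot be told apart from a difference in how the probes match each line. GST39 read 314, 163 and 226 units in the Ye478 controls and 715, 606 and 720 after re-watering, and 124, 178 and 178 against 85.4, 115 and 163 in Han21. The metallothionein-like gene mtl2, of a family of small metal-binding proteins, read 74.3, 68.1 and 66.6 units in the Ye478 controls, 1929, 2515 and 2374 under severe drought and 177, 149 and 164 after re-watering. It had thus lost most of its rise, with 23.8% left on the log2 scale.

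Lipoxygenases such as lox3 oxidise fatty acids on the way to defence compounds. In Ye478 lox3 read 67.6, 28.9 and 60.8 units in the controls, 424, 548 and 629 under severe drought and 191, 381 and 260 after re-watering. In Han21 it read 714, 1087 and 1303, then 2754, 3136 and 4006, then 692, 832 and 1130. As with gst19, Han21 controls were above every Ye478 array. For Zlp, the probe set Zm.281.1.S1_at read 35.4, 25.4 and 40.9 units in Ye478 controls, 261, 228 and 206 under severe drought and 179, 232 and 141 after re-watering, and 79.5, 55.0 and 102 in re-watered Han21. Its second probe set, Zm.281.1.S1_s_at, was 1.99 above control in Ye478 and -0.46 in Han21, and the first 2.28 and -0.17. Both lie in 1 cluster and both were chosen by the rule, so nothing is read from their likeness. The embryo globulin gene glb1 was near the detection limit in controls, at 13.0, 25.1 and 20.2 units in Ye478 and 5.4, 15.9 and 3.0 in Han21. Under severe drought it read 1638, 1282 and 1796 in Ye478 and 963, 1032 and 1403 in Han21. After re-watering it read 55.0, 87.4 and 47.5 in Ye478 and 1.5, 1.0 and 28.9 in Han21, where the sets are separated but lie around the level at which a fold depends on the constant added.

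**Figure D3:**
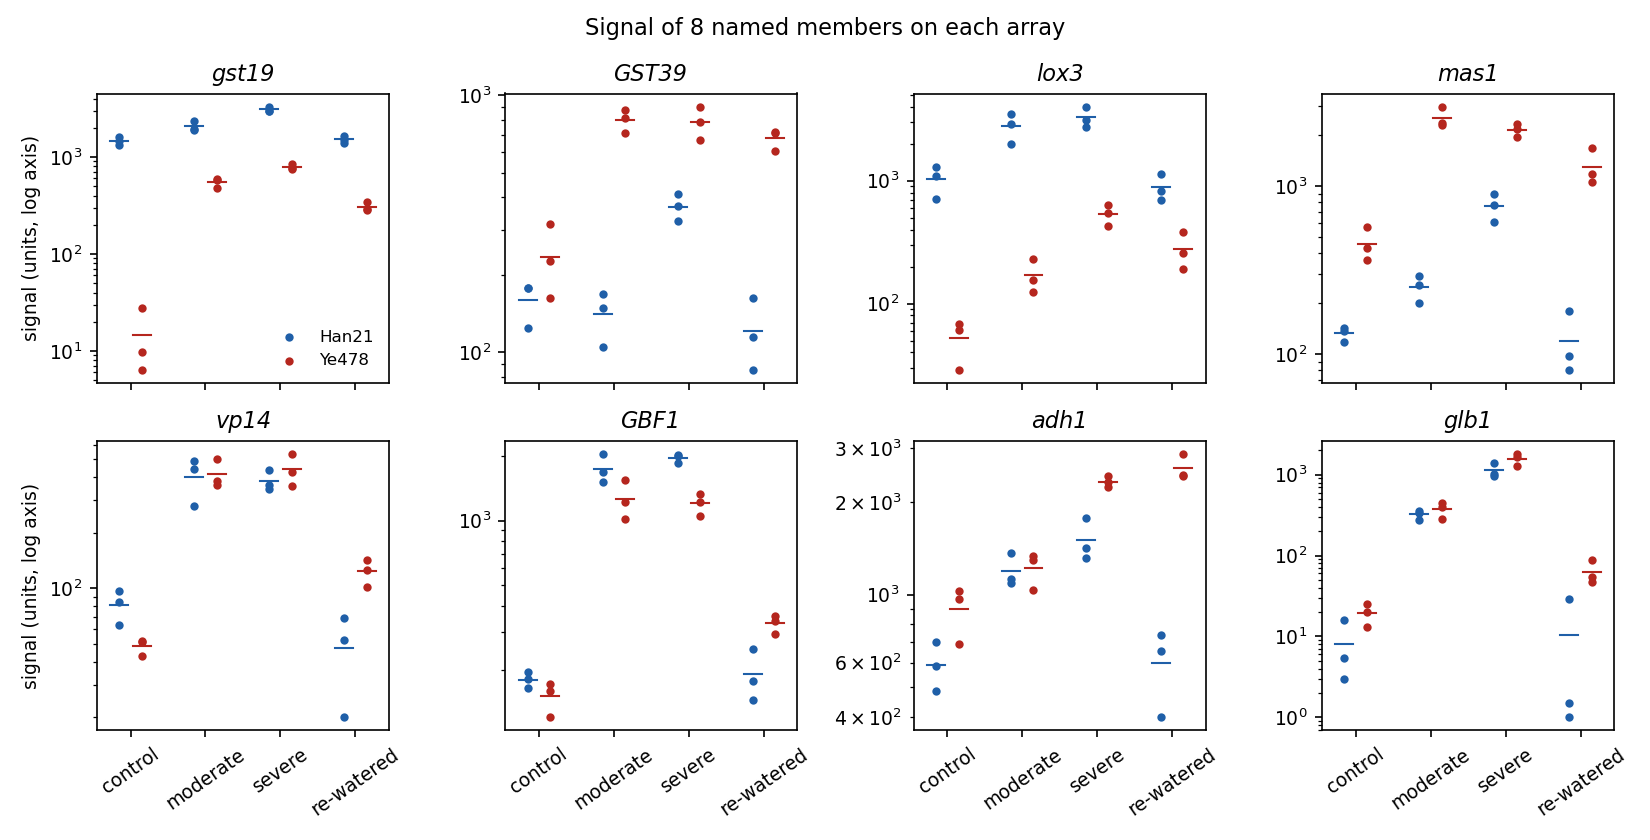
Signal of 8 named members on each array (points) with the group mean (bar), on a log axis, for Han21 in blue and Ye478 in red. For gst19 and lox3 the Han21 arrays are above the Ye478 arrays in every state, and for adh1 the re-watered Ye478 arrays, at 2428 to 2862 units, are above all other arrays.

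The largest difference in re-watered Ye478, 4.11, belonged to LOC100037814. It read 268, 238 and 76.7 units in the Ye478 controls, 7497, 7028 and 5944 under severe drought and 3826, 3900 and 2554 after re-watering, and 793, 805 and 453, then 5144, 7528 and 5270, then 720, 453 and 578 in Han21. It was also among the 3 brightest members in re-watered Ye478, with Zm.15850.1.S1_at at 4353 ± 676 units and Zm.4838.1.A1_at at 3251 ± 386 (SD, n = 3). After LOC100037814 and gst19 (3.98) came 10 members without a gene name. Zm.13389.1.S1_at was 3.33 above control, Zm.1967.1.A1_at 3.09, Zm.17726.1.A1_at 2.83, Zm.11718.1.A1_at 2.83 and Zm.4138.1.A1_at 2.75. Zm.14907.1.A1_at and Zm.8873.1.A1_at followed at 2.69 each, then Zm.14039.2.S1_at at 2.54, Zm.1219.1.S1_at at 2.47 and Zm.1419.1.S1_at at 2.47. Of these, Zm.8873.1.A1_at read 86.1, 73.7 and 40.1 units in the Ye478 controls, 3064, 3812 and 3274 under severe drought and 409, 498 and 468 after re-watering, against 47.1, 45.8 and 108 in re-watered Han21. LOC542630 and LOC542127 had 76.2% and 30.9% of their rise left in Ye478 on the log2 scale. After re-watering they read 223, 195 and 141 units and 873, 768 and 935 units there.

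Moderate drought was not used by the rule, although the controls it is compared with were, and it gives a measure of how the members responded to a milder stress. The members rose in nearly all cases. In Han21, limma at an adjusted p threshold of 0.05 called 76 of 83 higher under moderate drought than in the control, where 19.3% of all tested probe sets were called higher and 22% lower, and none of the members lower, with a median change of 1.96 (log2). In Ye478 it called 80 higher, where the background was 23.6%, and none lower (background 25%), with a median change of 2.53, and 75 members were called higher in both lines. The probe sets back in both lines after re-watering were called higher at a like rate, 299 and 300 of 317, but with medians of 1.03 and 1.15, while those high in both lines had 41 and 48 of 48 and medians of 1.88 and 2.36. These comparisons share their controls with each other and with the rule, and the difference between the sets was not tested. The 3 members not called in Ye478 were adh1 and both probe sets of the cluster Zm.6689. Those of Zm.6689 were also among the 7 members not called in Han21, and the others of the 7 were gst19, GST39, Zm.1419.1.S1_at, Zm.4160.1.A1_at and Zm.8160.1.A1_at. Under moderate drought the dividing-tissue markers summed to 376 to 426 units in Han21 and 516 to 581 in Ye478, below all controls, and the green shoot markers to 31711 to 38457 and 31426 to 38386. The actin difference was 1.68 ± 0.16 in Han21 and 1.42 ± 0.17 in Ye478 (SD, n = 3), and the part of these measures in the rises was not tested. With the replicate number as a block, adh1 was called in Ye478 (0.46 ± 0.20, SE; limma adjusted p = 0.0164, against 0.0573 without the block).

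Among the regulators and storage proteins, GBF1 rose by 3.24 ± 0.18 in Han21 and 3.03 ± 0.18 in Ye478 (log2 ± SE, limma adjusted p = 2.53e-11 and 3.26e-11), from 180 ± 15.7 to 1751 ± 273 units and from 150 ± 26.9 to 1262 ± 272 (SD, n = 3). The vp14 transcript rose by 2.22 ± 0.29 and 2.97 ± 0.29 (limma adjusted p = 3.02e-06 and 3.37e-08), and glb1 by 4.82 ± 0.47 and 3.99 ± 0.47 (limma adjusted p = 5.32e-08 and 4.60e-07). Under moderate drought vp14 read 278, 440 and 487 units in Han21 and 361, 381 and 503 in Ye478, which overlaps its severe drought arrays in both lines. The steepest rise among the members named here was that of Zm.8873.1.A1_at, by 5.36 ± 0.29 in Han21 and 6.0 ± 0.29 in Ye478. Smaller rises were those of Zlp, by 0.96 ± 0.21 in Han21 and 0.97 ± 0.21 in Ye478 with its first probe set and by 0.59 ± 0.17 and 1.10 ± 0.17 with its second. The first probe set went from 89.4 ± 18.3 to 177 ± 2.68 units in Han21 (SD, n = 3). For mas1 the Han21 rise of 0.87 ± 0.24 (limma adjusted p = 0.00518) was not called without replicate 2 (0.67, adjusted p = 0.116), and for Zm.1886.1.S1_at that of 0.93 ± 0.22 was not called without replicate 3 (0.63, adjusted p = 0.0834). The Han21 rise of Zm.7920.1.S1_at, 0.51 ± 0.17 (limma adjusted p = 0.0194), was not called without replicate 1 (0.36, adjusted p = 0.182) or without replicate 2 (0.45, adjusted p = 0.216).

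The lines were compared directly under moderate drought, the 1 comparison of which no array took part in the rule. The members showed no common direction: 19 were higher in Ye478, where 19.9% of all tested probe sets were called higher, 25 were higher in Han21, where the background was 22.7%, and 39 were not called, with a median difference of -0.10. The shares of members, 22.9% and 30.1%, were thus near the background. The 8 called higher in Ye478 with the smallest adjusted p were Zm.8160.1.A1_at, mas1, GST39, Zm.8548.1.A1_at, Zm.14907.1.A1_at, Zm.7920.1.S1_at, Zm.8772.1.A1_at and Zm.978.1.A1_at. Of these mas1 differed by 3.34 ± 0.24 (limma adjusted p = 1.92e-10), with 2370, 2307 and 2954 units in Ye478 and 257, 290 and 200 in Han21. GST39 differed by 2.50 ± 0.23 (limma adjusted p = 1.16e-08), with 880, 716 and 815 units against 105, 148 and 169. The other 6 differed by between 0.84 ± 0.14 for Zm.8772.1.A1_at and 2.97 ± 0.14 for Zm.8160.1.A1_at. Higher in Han21 were lox3, by 4.01 ± 0.31 (coded as Ye478 minus Han21, -4.01; limma adjusted p = 8.61e-10), and Zm.2482.1.A1_at, Zm.800.1.S1_at, Zm.16973.1.S1_at, gst19, Zm.1967.1.A1_at, Zm.11941.1.A1_at and Zm.17520.1.A1_a_at. For lox3 the arrays read 1971, 2921 and 3464 units in Han21 and 125, 154 and 231 in Ye478, and for gst19 1944, 1919 and 2337 against 576, 591 and 477. For mtl2 the difference was 1.48 ± 0.28 towards Ye478 (limma adjusted p = 0.000141). For vp14 and glb1 it was 0.07 ± 0.29 and 0.19 ± 0.47, not called. GBF1 was called lower in Ye478 by a narrow margin (-0.48 ± 0.18, limma adjusted p = 0.0386), which did not hold without replicate 1 (-0.44, adjusted p = 0.163) or without replicate 2 (-0.35, adjusted p = 0.264). Fitted to only the groups compared, GBF1 was not called (limma adjusted p = 0.0606), while LOC100037814 was called lower in Ye478 (-0.5, limma adjusted p = 0.0421). The bright member Zm.15850.1.S1_at was lower in Ye478 (-0.66 ± 0.20, limma adjusted p = 0.00859) but was not called without replicate 1 (-0.68, adjusted p = 0.0578). LOC542127 was called lower in Ye478 only with the replicate number as a block (-0.30, limma adjusted p = 0.0488, against 0.204 without the block).

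The difference between the lines in the response itself, which cancels a constant difference in probe match, was called for 16 members. The response was larger in Ye478 for 14, where 3.74% of all tested probe sets were called in that direction, and larger in Han21 for 2, where the background was 4.4%, with a median difference of 0.37. The share larger in Ye478 was 16.9% of the members, 6.90% of the drought-raised probe sets, 2.21% of those back in both lines and 10.4% of those high in both. Both this comparison and the rule contain the Ye478 controls, so a low control raises both. Without replicate 2 the number fell from 16 to 9, all larger in Ye478, and without replicate 1 the number larger in Han21 fell from 2 to 1. The difference was largest for gst19, at 4.51 ± 0.33 (SE, limma adjusted p = 2.93e-08), where Ye478 rose by 5.00 ± 0.24 and the Han21 change was 0.49 ± 0.24 (adjusted p = 0.104). Its Ye478 moderate drought arrays were nonetheless all below the Han21 ones, and its Ye478 control was 14.7 ± 11.6 units against 1471 ± 133 (SD, n = 3). For 7 of the 14, in contrast, the moderate drought level was also called higher in Ye478, among them mas1 (1.62 ± 0.33, limma adjusted p = 0.00319) and GST39 (1.99 ± 0.33, limma adjusted p = 0.000419). GST39 rose by 1.80 ± 0.23 in Ye478 and its change in Han21 was -0.19 ± 0.23. Zm.14907.1.A1_at, another of the 7, differed by 1.40 ± 0.27 (limma adjusted p = 0.0016; without replicate 2, 1.45 and 0.0676). The calls for GST39 and mas1 were each lost without 1 replicate number, GST39 without replicate 2 (1.8, adjusted p = 0.0553) and mas1 without replicate 1 (1.5, adjusted p = 0.0747).

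Zm.8160.1.A1_at also belonged to these 7, with a difference in response of 2.46 ± 0.20 (SE, limma adjusted p = 1.17e-07). Its Ye478 arrays read 144, 161 and 134 units in the control and 653, 669 and 668 under moderate drought, while those of Han21 read 105, 96.2 and 103 and then 87.3, 74.3 and 81.4. Zm.1886.1.S1_at and Zm.4160.1.A1_at differed in response by 2.54 ± 0.30 and 2.15 ± 0.28 (limma adjusted p = 1.58e-05 and 3.68e-05). Both started lower in Ye478 controls, at 37.9 ± 12.5 against 222 ± 82 units and at 283 ± 42.5 against 980 ± 208 (SD, n = 3). With the replicate number as a block, Zm.4160.1.A1_at was also called in Han21 (0.48, limma adjusted p = 0.0133) and between the lines under moderate drought (0.39, limma adjusted p = 0.0408). The 2 members with the larger response in Han21 were Zm.2482.1.A1_at (-1.32 ± 0.29, limma adjusted p = 0.00539) and Zm.2211.1.A1_at (-1.25 ± 0.30, limma adjusted p = 0.0106). Neither call held without replicate 2 (adjusted p = 0.0619 and 0.120), that of Zm.2482.1.A1_at was also lost without replicate 1 (adjusted p = 0.0784) and that of Zm.2211.1.A1_at without replicate 3 (adjusted p = 0.0915). Zm.2193.1.A1_at and Zm.16973.1.S1_at came next in that direction and were not called (-0.63 ± 0.24 and -0.85 ± 0.28, limma adjusted p = 0.121 and 0.0681). The member with the largest difference after re-watering, LOC100037814, differed in response by 1.43 ± 0.46 (limma adjusted p = 0.0629), which was called with the replicate number as a block (limma adjusted p = 0.0077), as was Zm.4138.1.A1_at (1.01, limma adjusted p = 0.0211, against 0.0600 without the block).

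**Figure D4:**
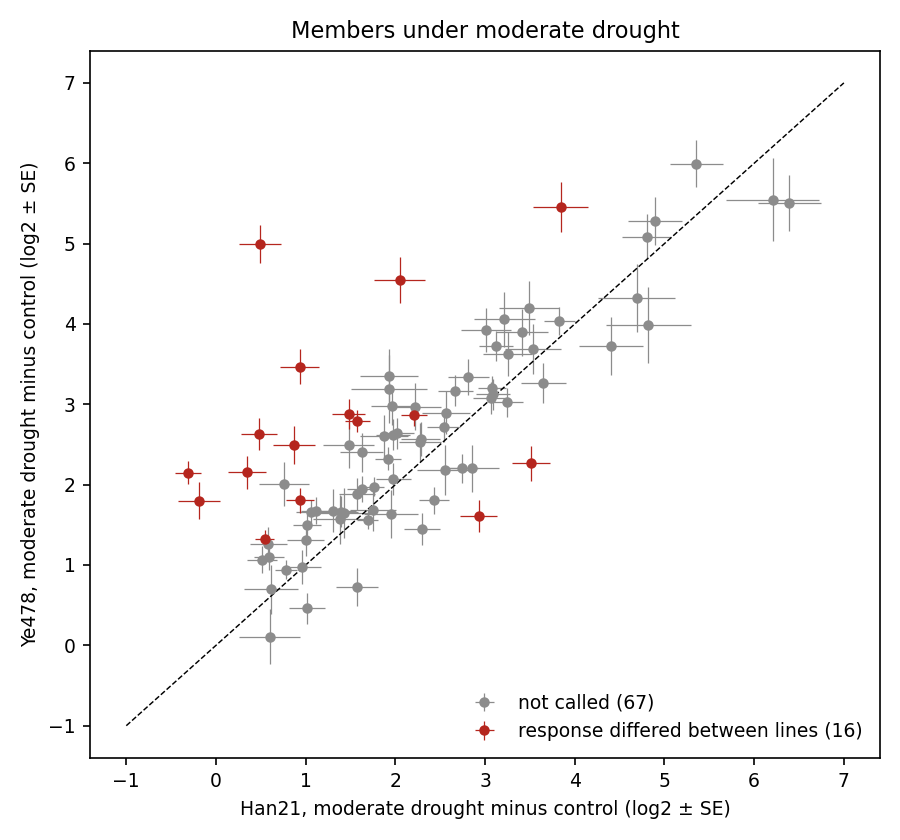
Moderate drought minus control in Han21 (x axis) and Ye478 (y axis), as log2 change with SE from the fit to all arrays, for the 83 members; red points are the 16 whose response differed between the lines and the dashed line marks equal change. Of the red points, 14 lie above the line, and the highest of those near the left edge is gst19 at 5.00 in Ye478 and 0.49 in Han21.

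Related genes outside the members show where the pattern stops. The lists were matched by gene symbol, and each gene was read from its brightest probe set. None of the 4 dehydrin and LEA genes was a member, although all 4 rose under moderate drought in both lines, with medians of 4.12 in Han21 and 3.97 in Ye478 (all tested probe sets, -0.01 and 0.01). The dehydrin gene dhn1 was still 3.21 above control in re-watered Ye478 and 1.60 in Han21, dhn2 2.84 and 0.92, and the LEA gene mlg3 4.70 and 2.60. These transcripts were thus above control in both lines, further in Ye478, and were left out by the Han21 condition. Of 3 genes of abscisic acid synthesis 2 were tested and vp14 was the member. The aldehyde oxidase gene AO1 rose in Han21 (0.89 ± 0.24, limma adjusted p = 0.00543), and was 0.44 above control in re-watered Ye478 and -0.34 in Han21. Of 4 genes of abscisic acid signalling 3 were tested, 2 rose in both lines, and GBF1 was the member.

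None of 6 heat shock protein and chaperone genes was a member either, and all 6 rose under moderate drought in both lines. Among them hsp101, whose product untangles protein aggregates, was 3.80 above control in re-watered Ye478 and 2.24 in Han21, and the small heat shock protein gene hsp18f 4.73 and 1.23. The gene hsp18 had the members' pattern, at 2.08 and 0.30, but did not meet the condition on signal. Its Han21 severe drought mean was 179.3 units. HSP18, a different entry among the 6, met the condition on signal but not that on re-watered Han21. It was 2.95 above control in re-watered Ye478 and 0.57 in Han21. Of 31 glutathione S-transferase genes, 28 were tested and 2 were members. Under moderate drought 8 of the 28 rose and 7 fell in Han21, where the backgrounds were 19.3% and 22%, and 6 rose and 10 fell in Ye478, where they were 23.6% and 25%. With so few genes nothing particular to the family is read from these counts. The relatives gst23 and gst17, raised by severe drought in both lines, were at -0.38 and 0.24 in re-watered Ye478. Of 8 antioxidant enzyme genes none was a member, and the catalase gene cat1, raised by severe drought in both lines, was 0.15 above control in re-watered Ye478 and -0.56 in Han21.

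The re-watered groups differed in other respects too. The summed signal of the dividing-tissue markers (pcna1, pcna2, MCM6, MCM7 and cycD1, of which cycD1 lay under the filter level in every group) was 1673 to 2577 units in re-watered Han21 against 1207 to 1461 in its controls, but 709 to 801 in re-watered Ye478 against 1128 to 1348 in its controls. These markers thus moved apart between the lines in the same arrays as the members, and their part in the members' pattern was not tested. Of 9 green shoot markers 7 were found, with sums of 41977 to 56166 units in re-watered Han21 (controls 38360 to 50790) and 44507 to 52115 in re-watered Ye478 (controls 37257 to 48048), so both lines' ranges overlapped their controls. The sums hide single markers that were above control in both lines. The mean of rca1 was 5819 against 2715 units in Han21 and 4522 against 2265 in Ye478. That of glk1 was 743 against 159 and 484 against 113, and lhcb6 was higher too. The means of the other green shoot markers found were below control in both lines. In the controls the green shoot markers found other than glk1 read 2265 to 10953 units as group means. The remaining marker, glk1, read 159 units in Han21 and 113 in Ye478. The labels name shoots while the extraction protocol names mesocotyls. No arrays of another tissue stand beside these, so the values do not decide between the 2. Of 9 kernel storage markers 5 were found, with sums between 166 and 418 units over all groups, and of 3 root markers none was found by symbol. The actin difference of 3' over 5' signal was 1.76 ± 0.41 in re-watered Han21 and 2.14 ± 0.21 in re-watered Ye478 (SD, n = 3), each within 1 SD of its own control, unlike under severe drought. For GAPDH it was 0.67 ± 0.78 and 0.08 ± 0.79, also within 1 SD. For the control gene ef1a it was 0.34 ± 0.26 in re-watered Han21, over 1 SD below the 0.65 ± 0.26 of its controls. In Ye478 the ef1a difference was 0.66 ± 0.07 against 0.91 ± 0.44. The part of these measures in the members' pattern was not tested. Replicate arrays correlated at 0.918 to 0.980 over the brighter probe sets, and the median signal per array was 154.4 to 192.9 units.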

How the data were processed

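RNA from seedling shoots was measured on 24 Affymetrix maize arrays. The deposited values are signal intensities of 17734 probe sets on a linear scale, and GCOS and MAS5 are the tools listed, without versions, per the submitters' processing notes. The 2% trimmed mean of every array was 500.1 to 500.2, so the deposited intensities had been scaled by the authors to a common mean. No further normalization was applied, and the 113 control probe sets were set aside.

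The rule was applied to group means. For the tests, log2 of the deposited intensity plus 4.56 (the 10th percentile of all values) was fitted with limma 3.58.1 (R 4.3.3; lmFit, eBayes with trend, 16 residual and 5.01 prior degrees of freedom) to all 24 arrays, over the 12111 probe sets above the 40th percentile of their array (72.6 to 106.8 units) on at least 3 arrays. All 83 members passed. P-values were adjusted by Benjamini-Hochberg over the 12111 within each of 4 contrasts. The number of arrays limits the precision. Under median centring the median of all probe sets in the moderate drought contrast of Ye478 was 0.13, against 0.01 as reported, and 0.09 against -0.01 in Han21.

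Arrays of the same replicate number had correlated deviations from their group means in the contrasts tested (18 pairs of arrays, r = 0.217 to 0.665 across genes), so the number pairs the arrays and serves as a block in an alternative. Replicate 1 stood apart, at -26.9 to -22.6 on the first principal component of these deviations against 5.74 to 20.3 for the others. The other alternatives were quantile normalization, median centring, filters, constants, eBayes without trend, only the groups compared, other thresholds of the rule, and leaving out replicates. The calling was tried on simulated data for the moderate drought contrast of Ye478 alone. It recovered 88% of changes of 1 (log2) and 100% of changes of 2, and 6.5% of its calls were false. The simulated arrays were drawn independently, without the correlation by replicate number, and the difference in response between the lines was not simulated.

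Gene names come from the array's annotation of 1 gene each for 1452 probe sets (1 had several, 16168 none), of which 1060 of 1108 genes were found in RefSeq's maize table (Zm-B73-REFERENCE-NAM-5.0), which served for names alone. Genomic positions and promoter or transcript sequences were not used here. The text names every member with a gene name, the 12 with the largest difference in re-watered Ye478, the 8 with the smallest adjusted p each way between the lines under moderate drought and the 4 each way for the difference in response, the 3 brightest in re-watered Ye478, the probe sets next to each threshold, and of the gene lists the members and up to 3 others with the smallest adjusted p; members outside this are named where a count was small or where they illustrate it, chosen after their values were seen. HSP18 is named beyond this to keep it apart from hsp18. The members and the gene lists were chosen with earlier results of these data known. The rest was done in Python 3.11.15 (pandas 2.3.3, numpy 2.4.6; figures, matplotlib 3.10.9).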

Additional observations from a re-analysis of the deposited data

Results flagged for a closer look

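The interaction test of limma called the response to moderate drought different between the lines for 16 members, and 13 of them are named here with the difference Ye478 minus Han21 in log2 change. The largest were gst19 at 4.51, Zm.1886.1.S1_at at 2.54, Zm.14039.2.S1_at at 2.50, Zm.8160.1.A1_at at 2.46 and Zm.4160.1.A1_at at 2.15. GST39 followed at 1.99, Zm.1419.1.S1_at at 1.81, mas1 at 1.62, Zm.14907.1.A1_at at 1.40, Zm.8772.1.A1_at at 1.22 and Zm.4838.1.A1_at at 0.79. The response was larger in Han21 for Zm.2482.1.A1_at at -1.32 and Zm.2211.1.A1_at at -1.25. No test for outlying values was run within groups of 3 arrays, and the counts with arrays left out are given with the dependence on the processing.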

How the results depend on the processing

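Leaving out 1 replicate number or 1 array changed the number of members called from 76 to between 73 and 76 in Han21 under moderate drought, from 80 to between 79 and 81 in Ye478, from 44 to between 34 and 40 between the lines under moderate drought (15 to 20 higher in Ye478, 17 to 25 higher in Han21), and from 16 to between 9 and 17 for the difference in response (9 to 15 larger in Ye478, 0 to 3 larger in Han21). The value of 9, all larger in Ye478, came without replicate 2, where fewer arrays were fitted. In a fit blocked on replicate but without replicate 1, chosen after seeing the data, 1 member had the larger response in Han21. With the replicate block on all arrays 77, 81, 53 (24 higher in Ye478, 29 in Han21) and 21 (19 larger in Ye478, 2 in Han21) were called, none over 1.5 times the reported number; beyond the calls given above it changed no call of a named member. The rule found 62 to 112 probe sets when arrays were left out, 101 after median scaling (77 of the 83 among them), 71 with a constant of 20 and 58 with a higher threshold in re-watered Ye478. No named value changed its direction where it was called. Values under the filter level, as in the Ye478 controls of gst19, limit how large a fold can be read. The search of promoters for motifs was not run.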
